A study of Mus musculus with 12 samples.

Results

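The genes described here encode the standing parts of the proteasome in mouse T lymphoma, leukaemic stem cells and their normal counterparts. They were taken by symbol, as every gene named Psma, Psmb, Psmc, Psmd, Psme or Psmg with a number, and the inducible catalytic subunits Psmb8, Psmb9 and Psmb10 were left out. This gave 43 of the 18193 genes with a named probe set. Of these, 42 were among the 12797 genes tested, which had to exceed a log2 intensity of 6.33 in at least 2 of the 12 arrays. A gene with several probe sets was represented by the one whose mean log2 across all 12 arrays was highest. The 42 genes tested were 8 alpha and 7 beta subunits of the core, 6 ATPases, 3 other base subunits and 8 lid subunits of the cap, 7 assembly chaperones and 3 activators.

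The proteasome degrades proteins that carry ubiquitin chains. Its core is a barrel of alpha rings, which gate the entrance, and beta rings, in which 3 subunits (Psmb5, Psmb6 and Psmb7) cut the protein. A cap of ATPases and a lid recognises, unfolds and feeds the substrate. Dedicated chaperones put core and cap together, and activators can take the cap's place. In lymphoid cells and after interferon, Psmb8, Psmb9 and Psmb10 replace the constitutive cutting subunits and change which peptides are made for MHC class I.

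The series compared cells that carry the ZMYM2-FGFR1 fusion kinase with normal cells. T lymphoma (n = 4) came from serially transplanted mice; 3 tumours were unsorted, with more than 90% of their cells GFP+ Thy1+ CD4+CD8+, and the fourth was sorted for such cells. They were set against CD4+CD8+ (DP) Thy1+ cells sorted from normal Balb/c thymus (n = 3, each a pool of 3 mice). Leukaemic stem cells (LSC, n = 2, each from 2 to 3 leukaemic mice) were GFP+ Lin- Sca-1+ c-kit+ cells of bone marrow or spleen, set against Lin- Sca-1+ c-kit+ cells from the marrow of normal female Balb/c mice (HSC, n = 2, each a pool of 5 mice), and the last array held ZNF112 (n = 1), for which the labels say only that it is a cell line. The labels give no strain, age or sex for the diseased mice, and the transplanted tumour and host cells share each unsorted sample. The labels call the replicates biological; the p-values measure the spread between these samples.

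Several facts of the arrays stand beside the results. The median intensity was 99.5 to 109 on the 8 arrays of DP thymocytes, lymphoma and ZNF112 and 44.3 to 46.1 on the 4 HSC and LSC arrays, so no level was compared across these sides. The actin 3′ to 5′ ratio, a measure of how complete the amplified transcripts are, was 2.18 to 3.69 on the 8 arrays of the T cell side, 5.79 and 3.91 in HSC 1 and 2, and 13.6 and 9.82 in LSC 1 and 2. The 8 markers of DP thymocytes were all above the filter level in every DP and lymphoma array and 7 were in ZNF112. They summed to intensities of 92100 to 102000 in DP thymocytes, 38600 to 52900 in lymphoma and 31600 in ZNF112. Cd4 was at 13.02 to 13.30 (log2) in DP thymocytes, 9.61 to 11.01 in lymphoma and 6.88 in ZNF112. Ptcra went the other way, at 9.23 to 9.59, 10.36 to 12.41 and 12.44. The 7 stem and progenitor markers were all above it in both HSC arrays, 5 were in LSC 1 and 2 in LSC 2; Kit was at 12.31 and 10.99 (log2) in LSC 1 and 2, while Cd34 was at 10.63 and 5.10. The 8 DP markers summed to intensities of 775 and 496 in HSC 1 and 2, 3560 in LSC 1 and 14800 in LSC 2. In each LSC array 6 of the 8 were above the filter level. Thy1 was at 8.67 in LSC 1 and 12.51 in LSC 2, Cd8a at 8.81 and 11.70, and Cd8b1 at 7.76 and 10.91. Rag1 was at 10.92 and 11.27, while Cd4 (6.28 and 5.81) and Ptcra (6.85 and 5.53) were lower in LSC 2. The 11 macrophage markers summed to 1260 to 1410 in DP thymocytes, 25700 to 55700 in the unsorted lymphomas and 3580 in the sorted lymphoma, and the 10 markers of stroma and endothelium to 928 to 1070, 17800 to 35500 and 888. Their part in the results was not tested.

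The proteasome genes as a set stayed close to the DP thymocyte level in T lymphoma. Of the 42 genes, 30 had a higher mean in lymphoma and 12 a lower one, against 48.4% higher among all genes tested. The median log2 difference was 0.11 for the 42 genes and -0.02 for all genes. The differences ran from -0.45 for Psmd3 to 1.09 for Psme1. None passed a Benjamini-Hochberg adjusted p of 0.05 in limma, where 6.55% of all genes did, and 2 genes (Psme1 and Psmg4) had an unadjusted p under 0.05, which is 4.76% of the 42 against 22.6% of all genes. The 95% intervals of 31 of the 42 genes lay within a 2-fold change in either direction, as did those of 5909 of all 12797 genes tested. In a fit of the DP and lymphoma arrays alone, whose spread is smaller than that of the stem cell arrays, 3 of the 42 genes passed (Psme1, Psmg4 and Psmb2), where 14.3% of all genes did.

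**Figure D1:**
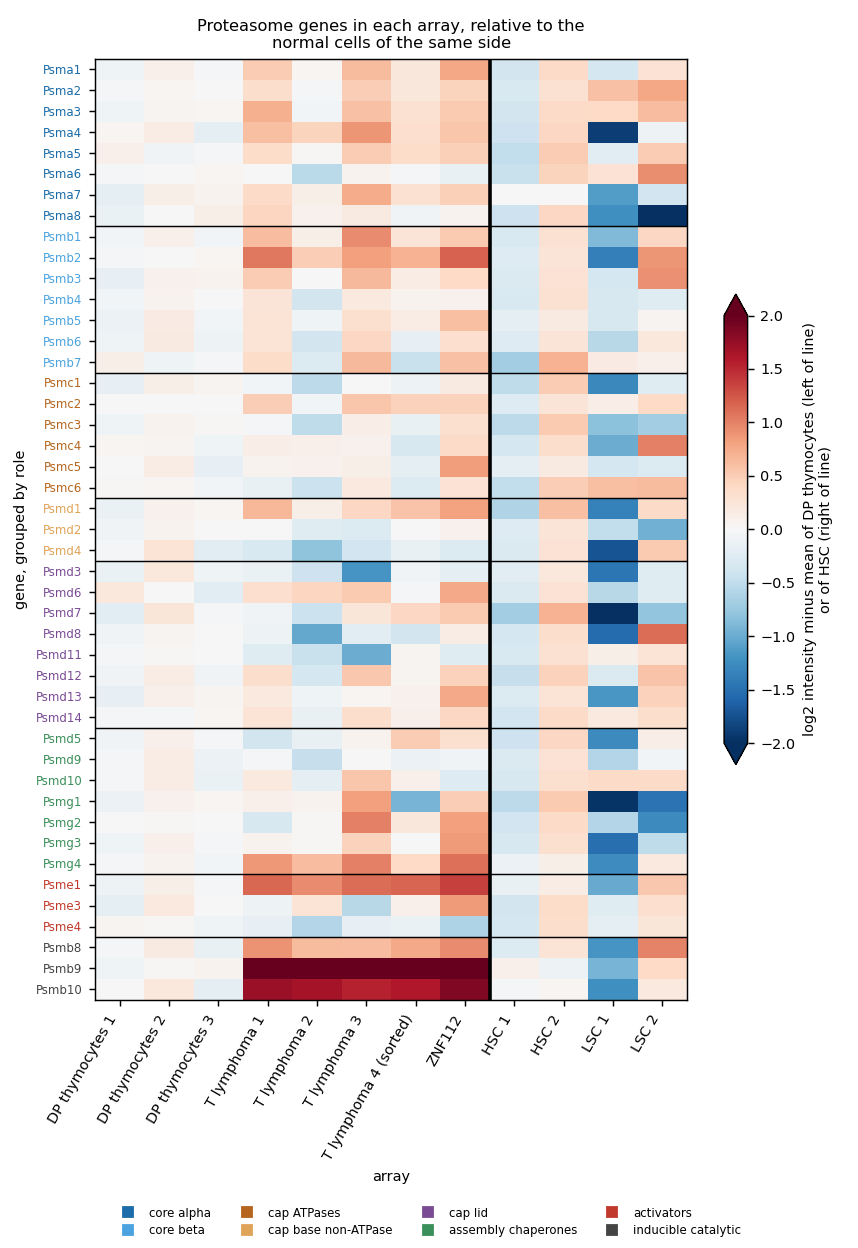
Log2 intensity of each of the 42 proteasome genes and of Psmb8, Psmb9 and Psmb10 (rows, coloured by role) in each of the 12 arrays (columns), minus the mean of DP thymocytes left of the thick line and minus the mean of HSC right of it; the colour scale ends at 2 in either direction. Psme1 and the inducible Psmb9 and Psmb10 stand out in all lymphoma columns, HSC 2 lies above HSC 1 in every row of the 42, and LSC 1 is lower than HSC in most rows.

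**Figure D2:**
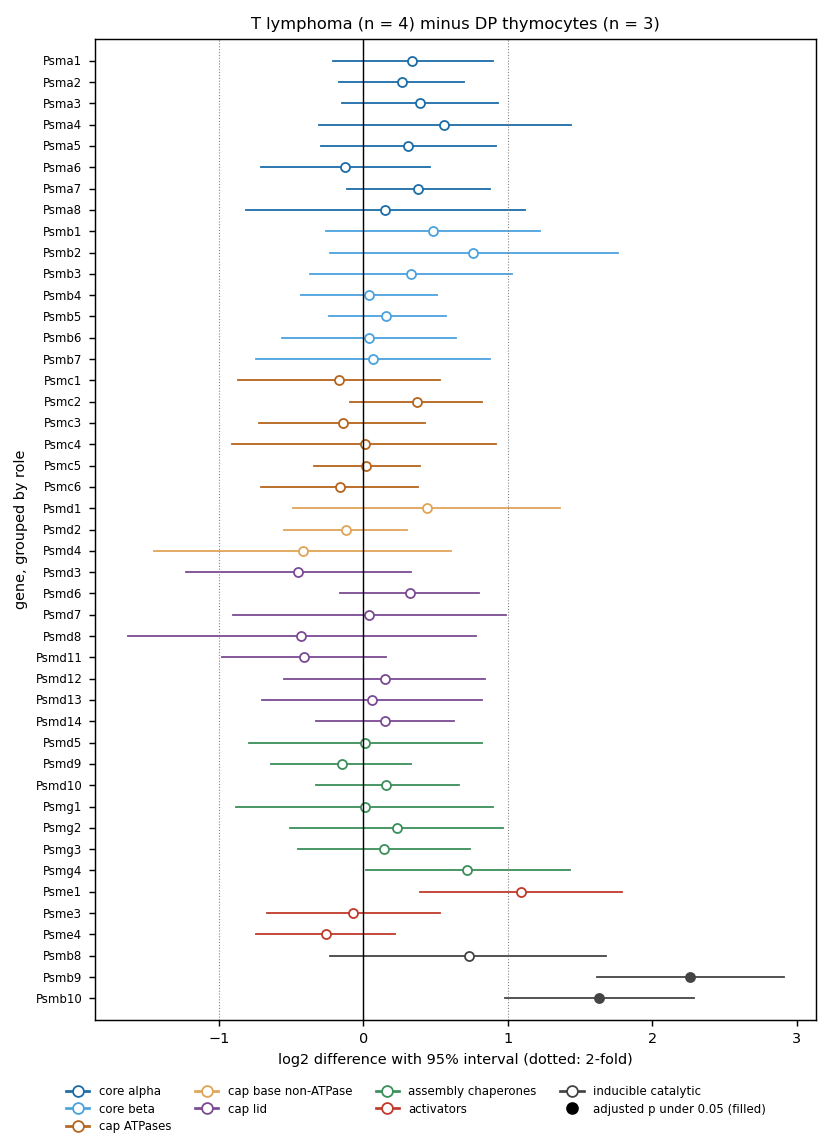
Log2 difference of T lymphoma (n = 4) minus DP thymocytes (n = 3) for each gene, with its 95% interval from limma on 12 arrays; filled points passed an adjusted p of 0.05 and dotted lines mark a 2-fold change. Psmb9 and Psmb10, which lie outside the 42 genes, are filled, and Psme1 is the highest of the 42 at 1.09.

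Most genes of the proteasome can be driven by the factor Nfe2l1, which binds antioxidant response elements in their promoters, so the promoters were searched for that element. RefSeq (GRCm38.p6) gave a promoter for 35 of the 43 genes. In the 250 bases before the start, TGACNNNGC stood on either strand in 5 of the 35 (14.3%) and in 10.1% of 27025 promoters of all genes. Psmb6 was among the 5, and 60 bases around the element of the other 4 are shown, with the element in capitals, because these are the member promoters in which the letters were found. They read 5′ to 3′ on the gene's strand at chr14:54618008-54618067 (minus strand) for Psmb5, chr14:45329574-45329633 (plus) for Psmc6, chr11:107479278-107479337 (plus) for Psmd12 and chr5:123228130-123228189 (plus) for Psmd9.
Psmb5: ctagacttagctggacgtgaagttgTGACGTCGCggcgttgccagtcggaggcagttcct
Psmc6: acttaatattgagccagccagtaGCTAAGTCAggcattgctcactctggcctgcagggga
Psmd12: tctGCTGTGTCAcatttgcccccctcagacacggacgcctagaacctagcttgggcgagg
Psmd9: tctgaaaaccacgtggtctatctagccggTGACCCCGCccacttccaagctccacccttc
In Psmb5 and Psmd9 the element lies on the gene's strand and begins 47 and 31 bases before the start. In Psmc6 and Psmd12 it lies on the other strand, 227 and 247 bases before the start. The CCAAT box, bound by NF-Y (letters CCAAT, either strand), stood in 13 of the 35 promoters (37.1%, against 34.5% of all). The STAT element TTCNNNGAA stood in 1 (Psmg1, 2.86% against 7.18%) and the interferon response core GAAANNGAA in 3 (8.57% against 7.16%). None of these matches overlapped another, and a match describes letters, not a bound site.

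The 4 genes with the shown element had differences of either sign. In lymphoma each was smaller than its SE, so the signs cannot show whether these genes moved together. In lymphoma minus DP thymocytes their log2 differences were 0.16 ± 0.18 (SE) for Psmb5, -0.16 ± 0.24 for Psmc6, 0.15 ± 0.31 for Psmd12 and -0.15 ± 0.21 for Psmd9. In LSC minus HSC they were -0.13 ± 0.24, 0.62 ± 0.32, 0.13 ± 0.40 and -0.32 ± 0.28 in the same order. Psmb6, which has the element but is not shown, was at 0.04 ± 0.27 in lymphoma and -0.17 ± 0.35 in LSC. None of these genes passed the test in either comparison. Nfe2l1 itself differed by 0.08 ± 0.29 between lymphoma and DP thymocytes and by 0.08 ± 0.38 between LSC and HSC. Whether it drives these genes here was not tested.

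The alpha subunits, which form the outer rings of the core, had slightly higher means in lymphoma. Of the 8, 7 were higher and Psma6 (-0.13 ± 0.26) was lower, with a median log2 difference of 0.33 and a range up to 0.56 for Psma4. None passed the test, and the smallest adjusted p (limma, Benjamini-Hochberg) was 0.335, for Psma7. Psma4 was at 11.74, 11.84 and 11.50 (log2 intensity) in DP thymocytes and at 12.30, 12.14, 12.57 and 12.03 in lymphoma 1 to 4. Psma7 was at 11.24, 11.53 and 11.48 in DP thymocytes and at 11.80, 11.54, 12.16 and 11.72 in lymphoma. In both genes every lymphoma array was above every DP array, and for Psma7 the gap was only that between 11.53 and 11.54.

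Psma8, the alpha subunit of meiotic germ cells, was below the filter level on the whole T cell side. Its values were 4.98, 5.11 and 5.23 in DP thymocytes, 5.54, 5.20, 5.28 and 5.03 in lymphoma and 5.17 in ZNF112. Psmb11, the beta subunit of thymic cortical epithelium, was the gene of the 43 that was not tested. It stayed between 5.72 and 5.94 on the T cell side and between 4.10 and 4.70 on the stem cell side. All 12 Psmb11 values lay below the filter level, and those of DP thymocytes and lymphoma overlapped.

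The 7 beta subunits tested all had higher means in lymphoma, and none passed the test. Their median log2 difference was 0.16 and the range 0.04 to 0.76. The highest was Psmb2, a structural subunit, at 10.67, 10.71 and 10.74 in DP thymocytes and 11.76, 11.20, 11.53 and 11.40 in lymphoma. All 4 lymphoma values exceeded all DP values. The difference was 0.76 ± 0.44, with an adjusted p of 0.341 (limma, Benjamini-Hochberg over all genes) in the fit of 12 arrays and 0.0192 in the fit of the DP and lymphoma arrays alone. Psmb2 varied most between the LSC arrays (8.59 and 10.84), a spread that enters the fit of 12 arrays. Psmb1, also structural, was 0.48 ± 0.33 higher, without overlap of its arrays.

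The constitutive cutting subunits were near their DP level, while inducible ones were higher. Psmb5, the chymotrypsin-like subunit, was at 12.19, 12.46 and 12.25 in DP thymocytes and 12.57, 12.22, 12.62 and 12.45 in lymphoma. Psmb6, the caspase-like subunit, was at 12.14, 12.40 and 12.12 against 12.49, 11.85, 12.64 and 12.05. Psmb7, the trypsin-like subunit, was at 12.04, 11.83 and 11.88 against 12.28, 11.64, 12.56 and 11.47. The groups overlapped in all 3 genes. The log2 differences were 0.16 (95% interval -0.24 to 0.57) for Psmb5, 0.04 (-0.56 to 0.64) for Psmb6 and 0.07 (-0.74 to 0.88) for Psmb7, so none of these intervals reached a 2-fold change.

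Psmb9, the inducible counterpart of Psmb6, was at 10.34, 10.45 and 10.51 in DP thymocytes and 12.99, 12.62, 12.70 and 12.47 in lymphoma. It rose by 2.26 ± 0.29, or 4.79-fold (adjusted p = 0.00168, limma with Benjamini-Hochberg). Psmb10, the counterpart of Psmb7, was at 10.37, 10.59 and 10.19 against 12.11, 12.05, 11.93 and 11.98, and rose by 1.63 ± 0.29, or 3.10-fold (adjusted p = 0.00976, limma with Benjamini-Hochberg). Lymphoma and DP arrays did not overlap in either gene. Psmb8, the counterpart of Psmb5, was at 12.49, 12.69 and 12.37 against 13.41, 13.15, 13.13 and 13.27. Its difference of 0.73 ± 0.42 also had no overlap of arrays but did not pass the test (adjusted p = 0.347 in limma with Benjamini-Hochberg, 0.0147 in the fit of the DP and lymphoma arrays alone). In the sorted lymphoma, where the macrophage and stroma markers were low, Psmb9 and Psmb10 were at 12.47 and 11.98. With that array as the only lymphoma their differences were 2.04 and 1.60, with adjusted p of 0.129 and 0.297 (limma, Benjamini-Hochberg). Psmb10 also lost its call without DP 1 (adjusted p = 0.0523) and without DP 3 (adjusted p = 0.0597; limma, Benjamini-Hochberg).

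**Figure D3:**
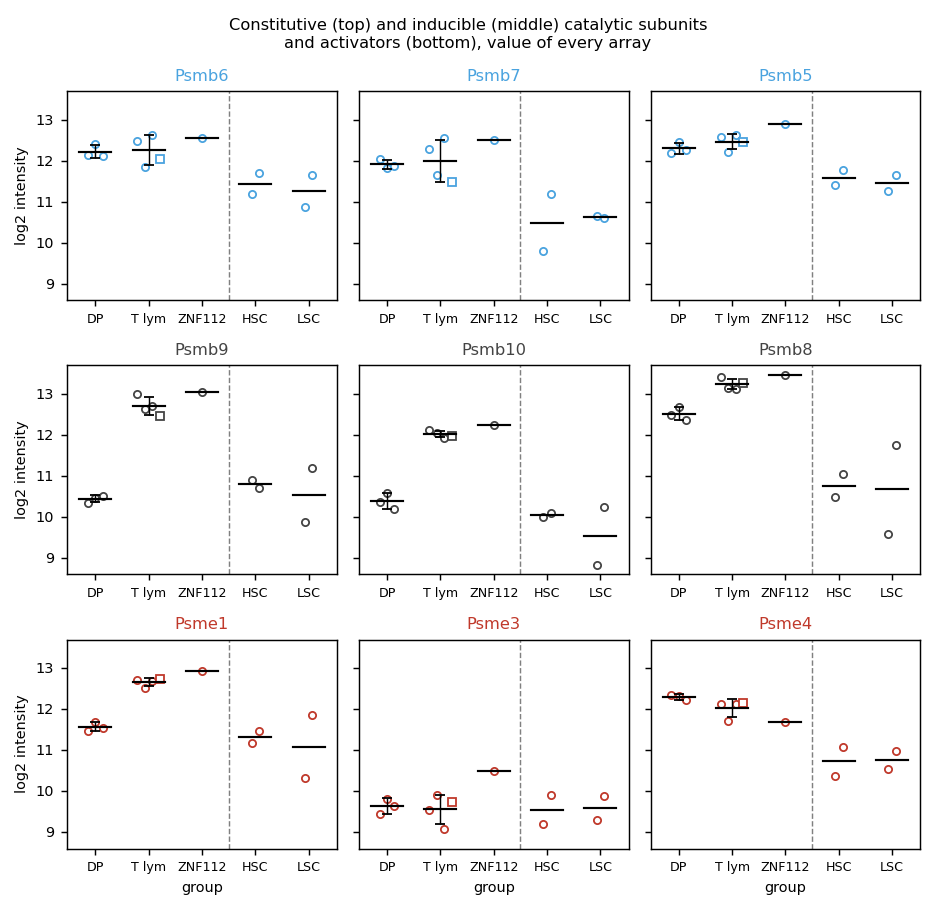
Log2 intensity of every array (points; the sorted lymphoma is a square) for the constitutive cutting subunits, the inducible subunit that replaces each one below it, and 3 activators, with group means as lines and the SD as bars for groups of 3 or 4 arrays. In lymphoma Psmb8, Psmb9, Psmb10 and Psme1 lie wholly above DP thymocytes and Psme4 wholly below. Psmb5, Psmb6, Psmb7 and Psme3 overlap them. Levels are not compared between panels or across the dashed line.

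The ATPases of the cap, which pull the substrate into the core, were split in direction. Of the 6, 3 had a higher and 3 a lower mean in lymphoma, with a median log2 difference of -0.07 and a range of -0.17 (Psmc1) to 0.37 (Psmc2). None passed the test, and all 6 intervals lay within a 2-fold change. Psmc2 was at 12.66, 12.67 and 12.66 in DP thymocytes and 13.16, 12.61, 13.22 and 13.13 in lymphoma. The DP arrays were almost equal, and lymphoma 2 fell just under them while the other 3 lymphomas were higher.

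The rest of the cap held the lowest differences of the set. Of the base subunits without ATPase activity, the scaffold Psmd1 differed by 0.44 ± 0.41, the scaffold Psmd2 by -0.12 ± 0.19 and the ubiquitin receptor Psmd4 by -0.42 ± 0.46. Of the 8 lid subunits, 5 were higher and 3 lower in lymphoma, with a median of 0.05. The 3 lower ones were Psmd3 (-0.45 ± 0.35), Psmd8 (-0.43 ± 0.54) and Psmd11 (-0.41 ± 0.25), and none of the 11 genes passed the test. Psmd8 was at 11.93, 12.05 and 12.01 in DP thymocytes and 11.89, 10.97, 11.78 and 11.63 in lymphoma, wholly below. Psmd14, the deubiquitinase of the lid, differed by 0.15 ± 0.21, and Psmd7, its inactive partner, by 0.04 ± 0.42.

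The assembly chaperones leaned upward, led by Psmg4. Of the 7, 6 had a higher mean in lymphoma, with a median log2 difference of 0.14. Psmg4, which helps build the alpha ring together with Psmg3, was at 8.76, 8.85 and 8.73 in DP thymocytes and 9.65, 9.39, 9.79 and 9.18 in lymphoma. All lymphoma arrays lay above all DP arrays. The difference of 0.72 ± 0.31 did not pass in the fit of 12 arrays (adjusted p = 0.211, limma with Benjamini-Hochberg) and passed in the fit of the DP and lymphoma arrays alone (adjusted p = 0.0327). Its partner Psmg3 differed by 0.14 ± 0.26, and the other pair of alpha ring chaperones by 0.01 ± 0.39 (Psmg1) and 0.23 ± 0.33 (Psmg2). The chaperones of the cap base, Psmd5, Psmd9 and Psmd10, differed by 0.01, -0.15 and 0.16.

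Among the activators, Psme1 had the highest difference of the 42 genes. Psme1 is a subunit of the interferon-inducible activator ring. It was at 11.46, 11.68 and 11.54 in DP thymocytes, 12.71, 12.50, 12.68 and 12.73 in lymphoma and 12.92 in ZNF112. The groups were far from overlapping, and the sorted lymphoma (12.73) was as high as the unsorted ones. The difference was 1.09 ± 0.31, or 2.13-fold (95% interval 0.39 to 1.79), with an adjusted p of 0.0731 (limma, Benjamini-Hochberg) in the fit of 12 arrays, 0.00188 in the fit of the DP and lymphoma arrays alone and 0.0303 after quantile normalization. Its ring partner Psme2 shares its only probe set with Psme2b and was not analysed here.

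The other activators did not share the height of Psme1. Psme3, the nuclear ring activator, was at 9.42, 9.81 and 9.63 in DP thymocytes and 9.52, 9.89, 9.06 and 9.72 in lymphoma, which overlapped. Psme4, a large activator of a single chain, was at 12.35, 12.31 and 12.21 against 12.12, 11.70, 12.12 and 12.15. All its lymphoma arrays were lower, with a difference of -0.26 ± 0.21 that did not pass the test.

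Counted by arrays, 7 of the 42 genes had all lymphoma arrays above all DP arrays, against 15.3% of all genes, and 2 had all below, against 19.1%. The 7 were Psma4, Psma7, Psmb1, Psmb2, Psmd1, Psme1 and Psmg4, and the 2 were Psmd8 and Psme4. As shares of the set these are near or under the background. In both directions together the count was 9 of 42, or 21.4%, against 34.4% of all genes. Without lymphoma 2 it was 17 (40.5%, against 38.9% of all genes), and without the sorted lymphoma 14 (33.3%, against 52.3%), so the share of all genes rose too.

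The lymphomas differed among themselves in the whole set more than DP thymocytes did. The median SD of the 42 genes was 0.27 in lymphoma and 0.10 in DP thymocytes, against 0.32 and 0.11 for all genes. Lymphoma 2 was the lowest of the 4 in 27 of the 42 genes, against 25.1% of all genes, and lymphoma 3 the highest in 25, against 29.5%. After quantile normalization lymphoma 2 was lowest in 15 (15.9% of all genes) and the sorted lymphoma in 20 (31.8%). Lymphoma 3 was then highest in 27 (31.7%). Relative to the DP mean, 28, 18, 33 and 26 of the 42 genes were higher in lymphoma 1 to 4.

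**Figure D4:**
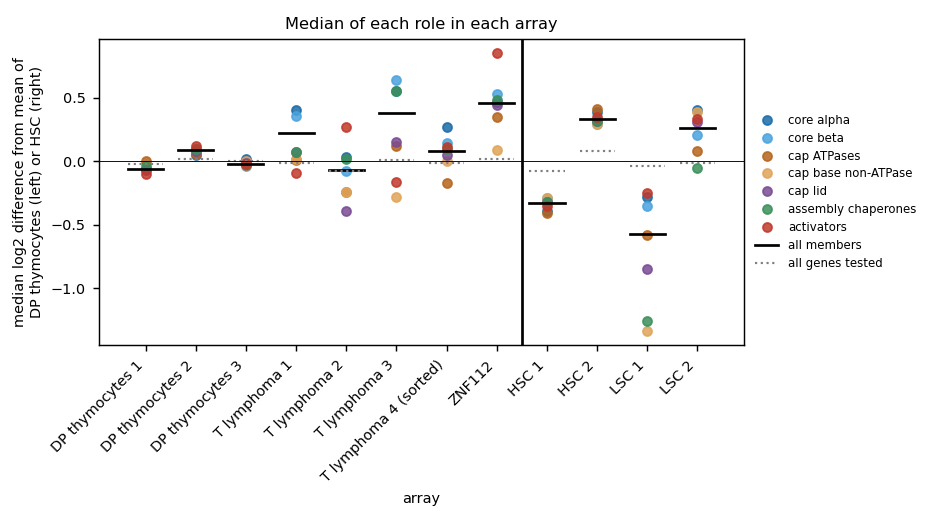
Median over the genes of each role (coloured points), over the 42 genes (black line) and over all genes tested (dotted line) of the log2 difference of each array from the mean of DP thymocytes (left of the thick line) or HSC (right). The lymphoma medians for the 42 genes run from -0.07 to 0.38, ZNF112 is at 0.46, and LSC 1 and 2 lie on opposite sides of 0 at -0.57 and 0.26.

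The sorted lymphoma was compared with the unsorted ones. It was a separate tumour, so sorting and differences between tumours cannot be told apart. Between the sorted lymphoma (n = 1) and the 3 unsorted ones 0 of the 42 genes passed (limma, Benjamini-Hochberg; 0.656% of all genes), 1 had an unadjusted p under 0.05, and the median log2 difference was -0.03 against 0.05 for all genes. That gene was Psmg1, at 9.85 in the sorted lymphoma and 10.88, 10.84 and 11.59 in the unsorted ones (-1.25 ± 0.45, adjusted p = 0.383 in limma with Benjamini-Hochberg). Psme1 differed by 0.10 ± 0.49, Psmb9 by -0.30 ± 0.44 and Psmb10 by -0.05 ± 0.46. A group of 1 array borrows its spread from the others.

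ZNF112 had higher values than the lymphoma mean for most of these genes. In 37 of the 42 its value was above the lymphoma mean, against 52.6% of all genes, and the median log2 difference was 0.31 against 0.03. In 19 genes it was above all 4 lymphomas, against 28.6% of all genes, and in 2 (Psmd10 and Psme4) below all 4, against 21.6%. No gene passed the test (limma, Benjamini-Hochberg; 1.16% of all genes), and 2 had an unadjusted p under 0.05, Psmc5 and Psme3. Psmc5, a cap ATPase, was at 12.16 in ZNF112 and 11.40, 11.42, 11.44 and 11.14 in lymphoma (0.81 ± 0.23, adjusted p = 0.181 in limma with Benjamini-Hochberg). Psme3 was at 10.47, above the 9.06 to 9.89 of the lymphomas (0.92 ± 0.39). All 6 ATPases, 7 beta subunits and 8 lid subunits were above the lymphoma mean, with role medians of 0.41, 0.30 and 0.37. Among the alpha subunits 5 of 8 were, with a median of 0.11.

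In LSC the set lay somewhat under HSC, but the LSC arrays differed from each other by more. Of the 42 genes 27 had a lower mean in LSC and 15 a higher one, against 48.2% higher among all genes, and the median log2 difference was -0.24 against -0.03. Taken alone against the HSC mean, LSC 1 had a median of -0.57, with 9 genes higher, and LSC 2 a median of 0.26, with 27 higher. With each HSC array left out in turn the median was -0.55 (without HSC 1) and 0.04 (without HSC 2). LSC 2 was above LSC 1 in 38 of the 42 genes, against 51.3% of all genes, by a median of 0.63 against 0.03, and after quantile normalization in 37. LSC 1 had the higher actin ratio (the GAPDH 3′ to 5′ ratio was 7.84 in LSC 1 and 8.13 in LSC 2). It had more signal of macrophage markers (14400 against 3560) and granulocyte markers (12500 against 1460). LSC 2 had the higher sum of DP markers given above. The part of these in the gap was not tested. In bulk samples fewer cells of a type and less RNA per cell cannot be told apart.

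The HSC arrays also differed across the whole set. HSC 2 was above HSC 1 in 42 of 42 genes, against 60.8% of all genes, by a median of 0.67 against 0.17. After quantile normalization it was above in 37 of 42, against 48.2% of all genes, by a median of 0.27. The gap was smallest in Psma7 (10.97 and 11.00) and largest in Psmd7 and Psmb7, which went from 8.94 to 10.34 and from 9.79 to 11.18. HSC 1 held more macrophage signal (summed marker intensity 30800 against 4830) and had the higher actin ratio of the pair; their part in this gap was not tested.

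**Figure D5:**
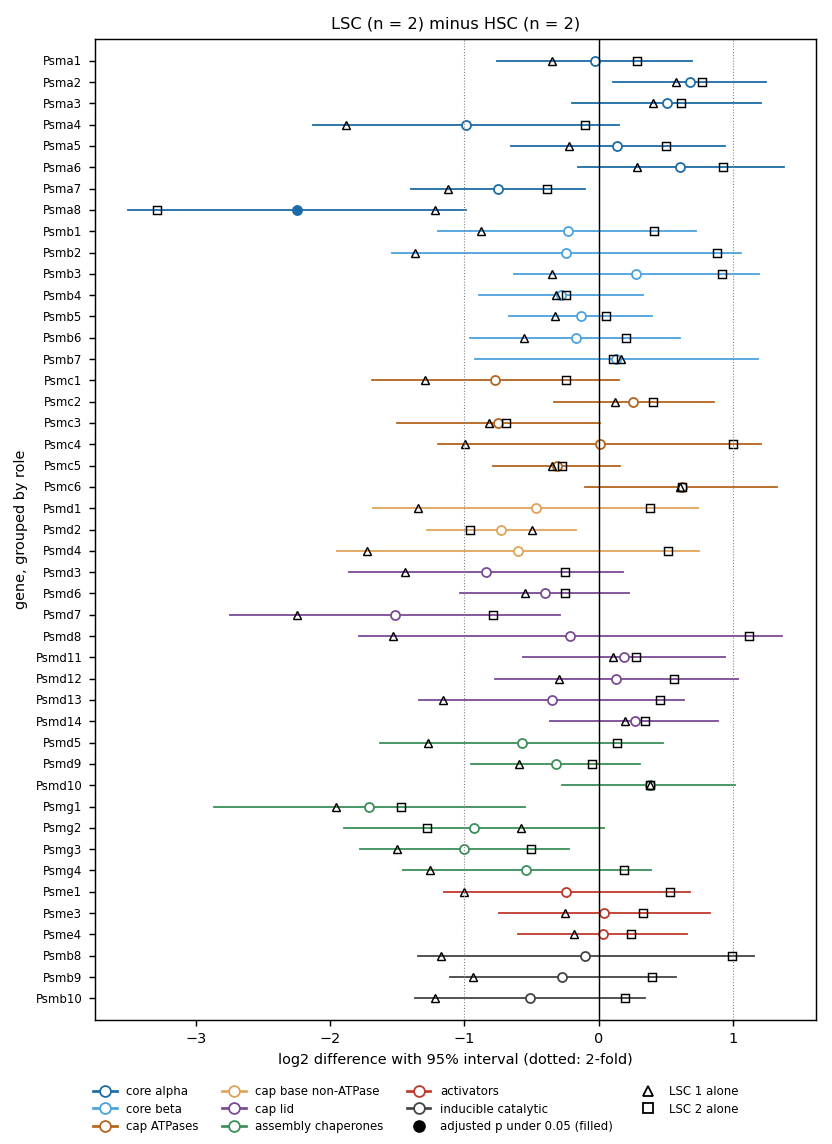
Log2 difference of LSC (n = 2) minus HSC (n = 2) for each gene with its 95% interval from limma on 12 arrays (circles, filled where the adjusted p was under 0.05), and each LSC array alone minus the HSC mean (triangle, LSC 1; square, LSC 2). Psma8 is the filled point at -2.25, and LSC 2 lies above LSC 1 in 38 of the 42 genes.

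Of the 42 genes 1 passed the test between LSC and HSC, where 10.3% of all genes did and 6.21% were called lower. It was Psma8, at 6.54 and 7.38 in HSC and 5.74 and 3.67 in LSC, which fell by 2.25 ± 0.56 (adjusted p = 0.0346, limma with Benjamini-Hochberg). It passed the filter only through the 2 HSC arrays, so it had to be higher there, and its call carries no weight for the set. The call was lost when either HSC array was left out (adjusted p = 0.0524 without HSC 1 and 0.168 without HSC 2; limma, Benjamini-Hochberg).

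The core beta subunits and the activators differed little on average between LSC and HSC with all arrays, but their medians moved with each array left out. The 7 beta subunits ran from -0.28 (Psmb4) to 0.28 (Psmb3), with a median of -0.17 and no call. That median was 0.21 without LSC 1, -0.35 without LSC 2, -0.5 without HSC 1 and 0.07 without HSC 2. The median of the 3 activators was 0.03 with all arrays and 0.33, -0.25, -0.32 and 0.38 in the same order. Psmb5 was at 11.40 and 11.77 in HSC and 11.26 and 11.64 in LSC, Psmb6 at 11.18 and 11.69 against 10.88 and 11.64, and Psmb7 at 9.79 and 11.18 against 10.65 and 10.59. The arrays of both groups overlapped in all 3 genes. Psmb2 and Psmb3 showed the split between the LSC arrays, at 8.59 and 10.84 and at 11.90 and 13.17. Psme1 was at 11.17 and 11.46 in HSC and 10.31 and 11.85 in LSC (-0.24 ± 0.41), one LSC array below and the other above both HSC arrays. Psme3 was at 9.18 and 9.90 in HSC and 9.29 and 9.87 in LSC, and Psme4 at 10.37 and 11.07 against 10.54 and 10.96. Their differences were 0.04 ± 0.35 and 0.03 ± 0.28.

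The inducible subunits overlapped between LSC and HSC as well. Psmb8 was at 10.48 and 11.03 in HSC and 9.58 and 11.75 in LSC. Psmb9 was at 10.89 and 10.70 against 9.86 and 11.19, and Psmb10 at 10.00 and 10.08 against 8.82 and 10.24. In all 3 genes LSC 1 was below and LSC 2 above both HSC arrays. The differences were -0.10 ± 0.56, -0.27 ± 0.37 and -0.51 ± 0.38, and none passed. With 1 LSC array left out Psmb8 passed in opposite directions, at 0.99 without LSC 1 (adjusted p = 0.0421) and -1.18 without LSC 2 (adjusted p = 0.0197; limma, Benjamini-Hochberg). Without LSC 2 Psmb9 (-0.93) and Psmb10 (-1.22) passed as well.

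The assembly chaperones and the base of the cap had the lowest role medians in LSC minus HSC, values that moved with the LSC array used. Of the 7 chaperones 6 were lower, with a median of -0.57, which was -0.05 without LSC 1 and -1.26 without LSC 2. Psmg1, an alpha ring chaperone, was at 9.70 and 10.74 in HSC and 8.26 and 8.75 in LSC (-1.71 ± 0.52, adjusted p = 0.0674, limma with Benjamini-Hochberg). Its partner Psmg2 was at 10.10 and 10.86 against 9.90 and 9.20, and Psmg3 at 9.55 and 10.20 against 8.37 and 9.37. In these 3 genes both LSC arrays were below both HSC arrays, and none passed the test. Psmd10, a base chaperone also known as gankyrin, went the other way, with 8.37 and 9.01 in HSC and 9.07 in both LSC arrays.

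Psmd7, of the lid, was at 8.94 and 10.34 in HSC and 7.39 and 8.85 in LSC (-1.52 ± 0.55, adjusted p = 0.116, limma with Benjamini-Hochberg). Psmd2, of the base, was at 11.20 and 11.73 against 10.97 and 10.51 (-0.73 ± 0.25, adjusted p = 0.0982, limma with Benjamini-Hochberg). Neither gene's arrays overlapped, and neither passed. The medians were -0.60 for the 3 base subunits, -0.28 for the 8 lid subunits and -0.15 for the 6 ATPases. Without LSC 1 all 3 turned positive (0.39, 0.31 and 0.08), and without LSC 2 they were -1.34, -0.85 and -0.58. Without HSC 2 the lid and ATPase medians were 0.04 and 0.11. Psmc6, an ATPase, was at 10.35 and 11.32 in HSC and 11.44 and 11.46 in LSC, above HSC in both arrays.

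The alpha subunits were divided between LSC and HSC. Their median was 0.06, with 4 higher and 4 lower means, and was 0.40 without LSC 1, -0.28 without LSC 2, -0.38 without HSC 1 and 0.50 without HSC 2. The 4 lower ones include Psma8, which passed the filter only through the HSC arrays and so had to be higher there. Psma2 was at 11.45 and 12.07 in HSC and 12.34 and 12.53 in LSC (0.68 ± 0.25), and Psma3 at 12.61 and 13.36 against 13.39 and 13.60. Psma7 was at 10.97 and 11.00 against 9.86 and 10.60 (-0.75 ± 0.29). Both LSC arrays lay above HSC in the first pair of genes and below in Psma7, and none of these 3 passed (adjusted p of 0.128, 0.350 and 0.137, limma with Benjamini-Hochberg). Counted by arrays, 10 of the 42 genes had both LSC arrays below both HSC arrays, against 22.5% of all genes, and 4 above, against 20.5%. The 10 again include Psma8.

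The count of calls depended on which LSC array was used. Psma8, among the genes named below, passed the filter only through the HSC arrays, so its calls carry no weight for the set. Without LSC 2, 11 of the 42 genes (26.2%) passed, where 21.2% of all genes did, all lower in LSC 1: Psma4, Psma7, Psma8, Psmb2, Psmd4, Psmd7, Psmd8, Psmd13, Psme1, Psmg3 and Psmg4. Without LSC 1, 2 passed, Psma8 and Psmd2, both lower in LSC 2, where 18.1% of all genes did. Without HSC 1 only Psmc3 passed (-1.28, adjusted p = 0.0308, limma with Benjamini-Hochberg), and without HSC 2 none did, against 8.39% and 6.05% of all genes. The count of 11 thus came with a higher share of calls among all genes. In a fit of the HSC and LSC arrays alone 0 of all genes passed. Psmd8, a lid subunit, shows the split, at 9.81 and 10.50 in HSC and 8.62 and 11.28 in LSC.

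The difference between the 2 disease comparisons was tested directly, as LSC minus HSC minus the difference of lymphoma and DP thymocytes. Of the 42 genes 0 passed (limma, Benjamini-Hochberg; 8.88% of all genes), 8 had an unadjusted p under 0.05 (19.0%, against 25.4% of all genes), and the median was -0.33 against -0.02, with 12 genes (28.6%) above 0 against 48.9% of all genes. Psme1 was at -1.33 ± 0.51 (adjusted p = 0.142) and Psmg1 at -1.72 ± 0.65 (adjusted p = 0.134; limma, Benjamini-Hochberg). The inducible Psmb9 (-2.53 ± 0.47, adjusted p = 0.0136) and Psmb10 (-2.14 ± 0.48, adjusted p = 0.0277; limma, Benjamini-Hochberg) passed. Psmb10 lost this call when DP 1, DP 2, DP 3, HSC 1, HSC 2, lymphoma 1 or lymphoma 2 was left out, with adjusted p of 0.0501 to 0.0763 (limma, Benjamini-Hochberg). Without LSC 2, 9 of the 42 genes (21.4%) passed, including Psme1 at -2.10, against 19.1% of all genes. Without LSC 1, which leaves 1 LSC array, Psma8 was at -3.44, but this gene passed the filter only through the HSC arrays. Without the sorted lymphoma only Psmg1 passed, against 12.6% of all genes.

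Other probe sets of the same genes gave a partial check. The 43 genes had 49 further probe sets, of which 39, for 21 genes, passed the filter. In lymphoma minus DP thymocytes 29 of the 39 had the sign of the probe set used and 0 passed the test, against 6.22% of all probe sets fitted. In LSC minus HSC 21 had the same sign, and 2 passed, against 9.20% of all probe sets, 1 for Psmb1 (1.04, where the probe set used was at -0.23) and 1 for Psme4 (1.04 against 0.03). Disagreement between LSC and HSC was not limited to these 2 genes, since only 21 of the 39 shared the sign. The other tested probe set of Psmd7 was at -0.24, where the one used was at -1.52, and that of Psmg3 at -0.17 against -1. Those of Psma7 (-1.09 against -0.75) and Psmg2 (-1 against -0.93) were closer.

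Genes that work with the proteasome were looked at beside the set. None of 8 associated factors, 3 regulators and 8 genes of ubiquitin supply and delivery passed between lymphoma and DP thymocytes (6.55% of all genes). The lowest was Ubqln2, which carries ubiquitylated proteins to the proteasome (-1.42 ± 0.43, adjusted p = 0.0879, limma with Benjamini-Hochberg; 0.045 in the fit of the DP and lymphoma arrays alone), and the highest Ecpas, a proteasome adaptor (0.91 ± 0.40). Between LSC and HSC 10.3% of all genes passed. Of the genes looked at here Ngly1, the glycanase that processes Nfe2l1, rose by 1.27 ± 0.28 (adjusted p = 0.0237, limma with Benjamini-Hochberg). Ufd1, a cofactor of the unfoldase Vcp, rose by 1.16 ± 0.27 (adjusted p = 0.0294, limma with Benjamini-Hochberg). Ngly1 lost its call without HSC 1 (adjusted p = 0.0746) and without HSC 2 (adjusted p = 0.0799), and Ufd1 without HSC 1 (adjusted p = 0.119) and without LSC 1 (adjusted p = 0.0642; limma, Benjamini-Hochberg). With the mean of all its probe sets Ufd1 was at 0.71 (adjusted p = 0.0926). Vcp itself was at -1.15 ± 0.35 and did not pass (adjusted p = 0.0701, limma with Benjamini-Hochberg). After quantile normalization it did (-1.23, adjusted p = 0.0422, limma with Benjamini-Hochberg), as did 11.7% of all genes. Without LSC 2, which leaves 1 LSC array, Vcp was at -1.72.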

How the data were processed

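The authors deposited linear probe set intensity values, for which the submitters' processing notes name RMA and give no version; the authors' scanner files were not used here. Per the labels' protocols, RNA was amplified in a kit with repeated rounds before hybridisation. Log2 of the deposited intensity was taken with no pseudocount. Array medians differed between the T cell side and the stem cell side, which looked normalized apart, so contrasts were made within a side. Arrays hold no read depth; their number limits the precision. Of 45101 probe sets, 64 were controls, 34945 had 1 gene symbol, 932 several and 9160 none here; 34741 matched a RefSeq gene. A gene had to exceed the median of all values (log2 6.33, an intensity of 80.2) in at least 2 arrays.

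Differences were tested two-sided in R 4.3.3 with limma 3.58.1, its lmFit and eBayes functions fitting 5 group means over 12 arrays, 1 shared spread and Benjamini-Hochberg adjustment over all 12797 genes; an adjusted p under 0.05 counted as a call. SE and 95% intervals come from that fit. The members, roles and lists were chosen with earlier results of these data known, and none of them is independent support. Values in every array were to be given for the cutting subunits and their inducible counterparts, the activators, Psma8, Psmb11 and every gene called; further genes were shown for the size of their difference after their values were seen. Same-numbered arrays were checked for pairing: the correlations of their deviations from the group means were 0.03, -0.07 and 0 for DP thymocytes with lymphoma and 0.1 and 0.1 for HSC with LSC, so the numbers were not taken to pair samples. Promoter sequences are those of RefSeq, GRCm38.p6. The fit was checked on simulated data with the same spread in every group and planted changes larger than any difference of the 42 genes. That check does not measure power for differences as small as theirs. Alternatives covered the filter, a pseudocount of 16, scaling, choice of probe set, the arrays in the fit, an intensity trend, a replicate block, the sorted lymphoma alone and each array left out.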

Additional observations from a re-analysis of the deposited data

Results flagged for a closer look

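In 5 of the 42 proteasome genes 1 lymphoma lay far from the other 3. The gap to the nearest array, as a share of the group's range, was 0.922 for Psme4 (lymphoma 2 low), 0.888 for Psmc4 (the sorted lymphoma low), 0.885 for Psmg3 (lymphoma 3 high), 0.86 for Psmc2 (lymphoma 2 low) and 0.855 for Psmc5 (the sorted lymphoma low), each past Dixon's limit for 4 arrays. Chance gives such gaps in about 1 in 20 groups, and 5.13% of all genes tested had one.

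The inducible Psmb9 and Psmb10 differed between the 2 disease comparisons. The log2 difference of LSC minus HSC, less that of lymphoma minus DP thymocytes, was -2.53 and -2.14 and was tested itself in limma.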

How the results depend on the processing

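The limits are the number of arrays, with 2 each of HSC and LSC and 1 each of ZNF112 and the sorted lymphoma, and the shared spread. Between lymphoma and DP thymocytes the count of proteasome genes called was 0 (6.55% of all genes). It became 3 with only these arrays in the fit (7.14%, against 14.3% of all genes). After quantile normalization it was 1, Psme1 (2.38% against 7.78%). Under the other alternatives it was 0. The count without overlap of arrays (9, or 21.4%, against 34.4% of all genes) became 16 after quantile normalization (38.1% against 35.7%), 29 with the sorted lymphoma as the only lymphoma (69.0% against 76.0%) and 6 with arrays centred on their medians (14.3% against 34.2%), and ran from 9 to 17 with 1 array left out. Between LSC and HSC the count was 1 (2.38%, against 10.3% of all genes). It became 0 when a gene had to exceed the level in 6 arrays (Psma8 then left the test, 9.81% of all genes). With only these arrays in the fit it was 0, as it was for all genes. It was 2 with the mean of all probe sets (Psma6 and Psma8, 4.76% against 9.5%). After quantile normalization it was also 2 (Psma8 and Psmd2, 4.76% against 11.7%). The count was highest without LSC 2, which leaves 1 LSC array. The median of LSC minus HSC ran from -0.57 (without LSC 2) to 0.26 (without LSC 1). The difference of the comparisons had a count of 0 (8.88% of all genes). It gave 1 with the mean of all probe sets (Psma6, 2.38% against 8.27%) and 1 after quantile normalization (Psma7, 2.38% against 11%). With 1 array left out its count was highest without LSC 2, which leaves 1 LSC array. With the replicate number as a block the difference of the comparisons gave 1 (Psmg1, adjusted p = 0.0432 in limma, 7.85% of all genes). With that replicate block lymphoma minus DP thymocytes gave 0 (7.92% of all genes). LSC minus HSC gave 1 (6.42% of all genes), Psmg1 (adjusted p = 0.04, limma) in place of Psma8 (adjusted p = 0.116, limma). Psmb8 in LSC minus HSC reversed from -0.10 to 0.99 without LSC 1 and was -1.18 without LSC 2. Psmb10 lost its call between lymphoma and DP thymocytes without DP 1 (adjusted p = 0.0523, limma) and without DP 3 (adjusted p = 0.0597, limma). For single genes between lymphoma and DP thymocytes, outside factors included, 1068 of 1151 recomputed values kept direction and side of the threshold, 4 lost and 7 gained a call and 72 uncalled ones changed sign; between LSC and HSC these were 782 of 895, with 13, 24 and 75. Ngly1 and Ufd1 lost their calls under the block (adjusted p = 0.0538 and 0.118, limma), as did Psmb10 in the difference of the comparisons (adjusted p = 0.0552, limma). The causes of these changes were not tested beyond the arrays and genes named.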
